A study of Drosophila melanogaster with 2 samples.

Results

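The cuticle protein genes of Drosophila melanogaster were examined as a family for occupancy by HmgZ, a DNA-binding protein of chromatin that carries a high mobility group (HMG) box. They were the protein-coding genes of the Ensembl annotation whose symbol begins with Cpr and a digit, Twdl, Ccp84A, Lcp, Edg or Acp65A, a rule that took 121 of 13945 genes. All 121 symbols were also found in the RefSeq annotation. By name the family held 70 Cpr, 25 Twdl, 15 Lcp, 7 Ccp84A, 3 Edg and 1 Acp65A genes. HmgZ was mapped by chromatin immunoprecipitation and sequencing (ChIP-seq) in whole embryos of mixed sex, collected at 4 to 24 h by the source name (the separate age field gives an impossible age for an embryo), of a transgenic line that stably expresses HmgZ with GFP at its C-terminus. There was 1 group of 2 biological replicates, numbered 1 and 3. The labels' description field calls both samples input controls, whereas their antibody and assay fields describe an HmgZ ChIP, the reading used below. No embryos without the tagged protein were analysed here.

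Insect cuticle is an extracellular layer of chitin fibres and proteins that the epidermis secretes, and it is replaced at each moult. Most Cpr, Lcp, Ccp84A, Edg and Acp65A proteins carry the Rebers-Riddiford domain, which binds chitin, while the Tweedle (Twdl) proteins form a separate family of structural cuticle proteins. Many of the genes stand in tandem arrays and are switched on in epidermal cells for a short stage, such as the larval (Lcp), pupal (Edg) or adult (Acp65A) cuticle. In contrast, the genes of general cell function that lie between these arrays are active in most cells.

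The promoters below show what the family's gene starts look like. The first 3 are those of the first gene in the largest clusters, and the next 3 belong to the members with a weak region at their start that was found in at least 1 replicate. Each runs from 100 bp before the annotated gene start to 50 bp from it on, 5′ to 3′ on the gene's strand, from the RefSeq copy of the assembly that dm6 names, and capitals mark TATAAA or TCAGT on either strand.
Lcp65Ag3, chr3L:6130940-6131089, minus strand: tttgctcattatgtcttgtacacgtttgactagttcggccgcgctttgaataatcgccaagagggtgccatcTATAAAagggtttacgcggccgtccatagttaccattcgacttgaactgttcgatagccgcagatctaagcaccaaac
TwdlM, chr3R:26619018-26619167, plus strand: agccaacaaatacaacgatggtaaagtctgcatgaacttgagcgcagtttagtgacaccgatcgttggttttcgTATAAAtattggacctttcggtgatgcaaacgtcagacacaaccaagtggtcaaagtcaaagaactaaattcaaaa
Edg84A, chr3R:6684345-6684494, plus strand: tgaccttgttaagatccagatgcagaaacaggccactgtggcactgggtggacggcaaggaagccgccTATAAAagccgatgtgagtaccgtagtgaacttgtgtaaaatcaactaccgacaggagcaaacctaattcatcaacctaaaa
Cpr73D, chr3L:16957640-16957789, minus strand: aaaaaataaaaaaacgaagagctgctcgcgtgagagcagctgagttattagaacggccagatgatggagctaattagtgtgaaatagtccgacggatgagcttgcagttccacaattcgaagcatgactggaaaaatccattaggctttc
TwdlG, chr3R:4251292-4251441, minus strand: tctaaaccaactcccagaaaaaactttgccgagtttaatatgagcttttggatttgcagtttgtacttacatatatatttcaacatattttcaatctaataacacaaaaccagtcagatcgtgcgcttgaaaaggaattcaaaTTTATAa
Cpr78Cb, chr3L:21294392-21294541, plus strand: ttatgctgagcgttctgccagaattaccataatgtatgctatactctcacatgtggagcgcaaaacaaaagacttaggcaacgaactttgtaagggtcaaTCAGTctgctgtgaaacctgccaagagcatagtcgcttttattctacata
In the first 3 promoters a TATAAA, the sequence of the TATA box, began at -28, -26 and -32 bp from the gene start. The Cpr73D stretch held neither sequence, that of TwdlG held a TATAAA only downstream of its start and on the opposite strand, and that of Cpr78Cb held the initiator core TCAGT at its start.

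The next 3 sequences are the 151 bases centred on the thresholded peaks with the highest mean signal over the replicates, as a multiple of each list's median, among those within 5 kb of a member and at another gene's start. They are given on the plus strand, and capitals mark the BEAF-32 core CGATA and GGTCACAC, the core of the motif bound by M1BP, on either strand.
CG11309 peak, chr3L:21304495-21304645, plus strand: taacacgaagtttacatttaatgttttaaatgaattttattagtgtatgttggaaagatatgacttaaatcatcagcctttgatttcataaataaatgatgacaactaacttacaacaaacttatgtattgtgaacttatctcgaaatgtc
Pex2 peak, chr3L:8338947-8339097, plus strand: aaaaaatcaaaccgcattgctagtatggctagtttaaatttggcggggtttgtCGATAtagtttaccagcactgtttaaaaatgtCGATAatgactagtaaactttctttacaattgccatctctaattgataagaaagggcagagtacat
Ogdh peak, chr3L:16955345-16955495, plus strand: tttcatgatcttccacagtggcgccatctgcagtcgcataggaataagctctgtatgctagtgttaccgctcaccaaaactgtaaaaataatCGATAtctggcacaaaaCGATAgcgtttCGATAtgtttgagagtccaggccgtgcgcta
The peaks at Pex2 and Ogdh held CGATA, 2 and 3 times, and the peak at CG11309 held neither sequence.

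No cuticle protein gene had a thresholded HmgZ peak at its start. The thresholded set holds the 6844 regions that passed the irreproducible discovery rate (IDR) threshold, and a gene is called bound where the summit of one lay at most 250 bp from any of its transcription start sites (TSSs). Among the 121 cuticle genes 0 were bound (95% Wilson interval up to 3.08%), against 33.1% of the 13824 other protein-coding genes. The floor set for a count of 0, which is 3 counts over 121 genes, was 2.48%, a rougher limit than the interval. Each replicate's own 6844 strongest regions gave the same count, 0 of 121, against 31.5% of other genes in replicate 1 and 33.4% in replicate 3. The windows within 250 bp of these summits covered 2.51% of the bases of the 6 chromosome arms used. A list from whole embryos cannot tell a site occupied in few cells from one weakly occupied in many. Genes of a cluster are close together and partly share their sequence, so they are not independent observations, and the intervals cover counting error only. The files give no read totals, so the sequencing depth is unknown.

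The gap extended well beyond the promoters. The nearest thresholded summit lay a median of 14570 bp from a cuticle gene TSS (quartiles 7691 and 23156 bp), against 2472 bp for other genes (126 and 11236 bp). Within 5 kb of a TSS, 18 cuticle genes (14.9%, 95% Wilson interval 9.62 to 22.3) had a thresholded summit, against 60.9% of other genes, and the windows of this size covered 30.3% of the arms. The last genes inside this limit were Cpr30F at 4982 bp and Ccp84Aa at 4992 bp, and the first outside it were Edg91 at 5313 bp, by a peak nearest to the gene sll (2.30 times the list median in replicate 1 and 2.14 in replicate 3), and Cpr67Fa2 at 5469 bp. At 20 kb the counts were 77 cuticle genes (63.6%) against 83.6% of other genes. The cuticle gene farthest from a summit was TwdlT, at 58954 bp.

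**Figure D1:**
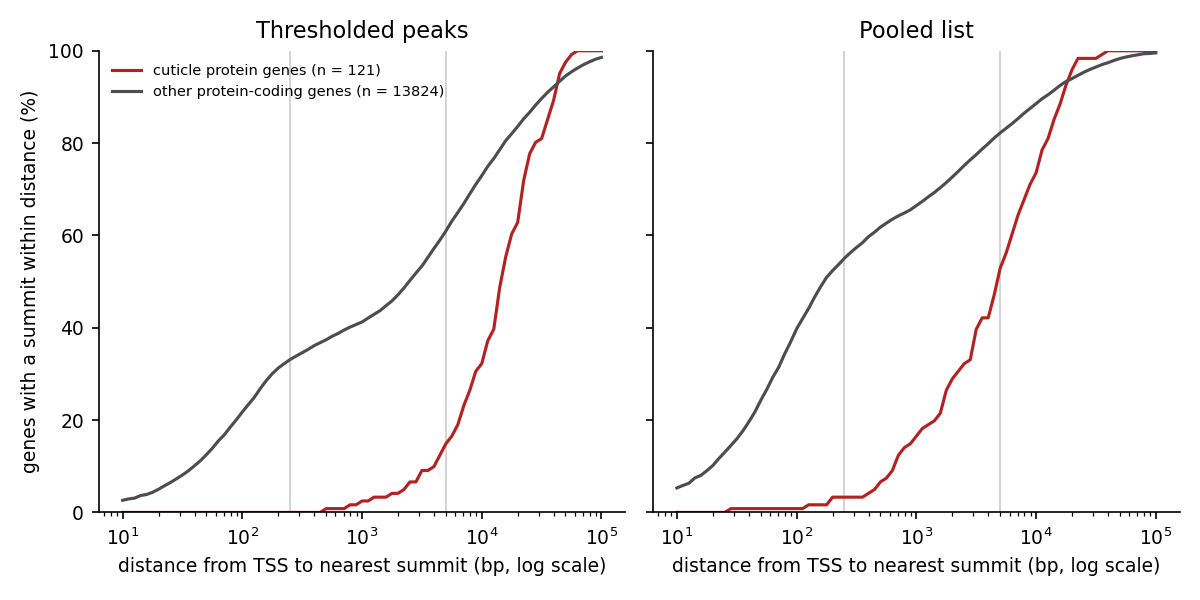
Share of genes (vertical axis, percent) whose nearest summit lay within a given distance of a TSS (horizontal axis, bp, log scale), for the 121 cuticle protein genes and the 13824 other protein-coding genes, with thresholded peaks on the left and the pooled list on the right. Grey lines mark 250 bp and 5 kb, where the thresholded shares were 0% and 14.9% of cuticle genes against 33.1% and 60.9% of other genes.

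Weaker regions added few cuticle gene starts. The pooled list holds the 30000 strongest regions called on the reads of both replicates, of which the thresholded set is the top. In its stronger 15000 regions 2 cuticle genes had a summit within 250 bp (1.65%), against 47.4% of other genes, and in the whole list 4 did (3.31%, 95% Wilson interval 1.29 to 8.19), against 55.0%. Windows of 250 bp around the 30000 summits covered 10.3% of the arms. Within 5 kb the whole list had a summit for 64 cuticle genes (52.9%), against 82.2% of other genes, while such windows covered 56.5% of the arms. The median distance to the pooled list was 4961 bp for cuticle genes and 168 bp for other genes.

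**Figure D2:**
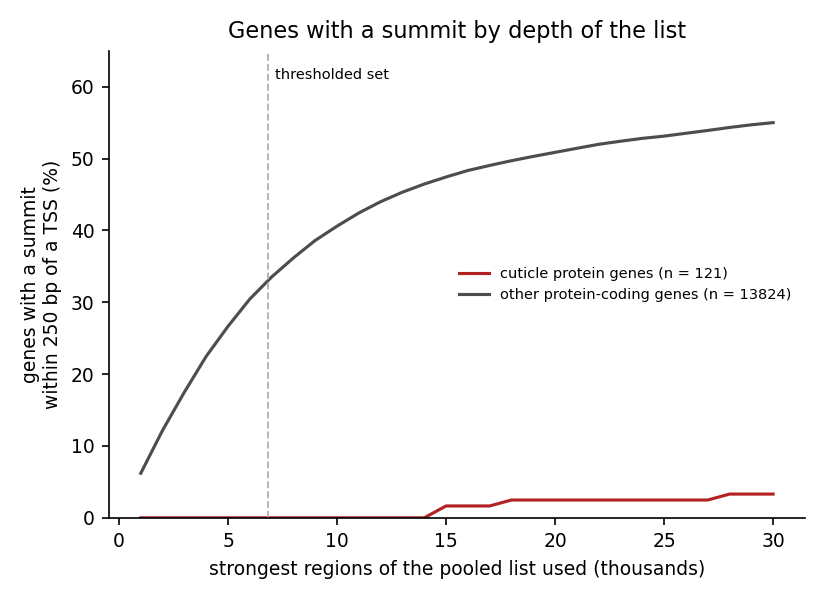
Share of genes with a summit within 250 bp of a TSS (vertical axis, percent) as the list is extended from its strongest regions (horizontal axis, regions of the pooled list, in units of 1000), for the 121 cuticle genes and the 13824 other protein-coding genes. The cuticle line stays at 0% past the end of the thresholded set (dashed) and reaches 3.31% at 30000 regions, where the line of other genes reaches 55.0%.

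The 4 genes with a weak region at their start were Cpr73D, Cpr57A, Cpr78Cb and TwdlG. Signal is given below as a multiple of the median of a replicate's own list, because the authors' scale differs between lists, and a region counts as found in a replicate where that list has a summit within 100 bp. TwdlG (3R 4248723 to 4251341), a Tweedle gene with 3 annotated TSSs, had 2 such regions, both found in both replicates. The region 26 bp upstream of one TSS reached 0.664 in replicate 1 and 0.536 in replicate 3, and the region 120 bp upstream of another reached 0.679 and 1.21. Of the 4 values only one is above the median of its list. The region 195 bp downstream of the Cpr73D TSS, which also lay 55 bp from a TSS of Ogdh, was found in replicate 1 (1.62) and not in replicate 3, and that 118 bp downstream of the Cpr78Cb TSS likewise (0.672 in replicate 1). The region 198 bp downstream of the Cpr57A start, which also lay within 250 bp of a TSS of Obp57d, an odorant-binding protein gene, was matched in neither replicate. Their ranks in the pooled list ran from 14375 to 27145 of 30000. Just outside the window lay Cpr67B at 370 bp and Cpr65Av at 421 bp.

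The replicates' own lists of 30000 regions held few cuticle gene starts. Replicate 1 had a summit within 250 bp of 4 cuticle genes (against 54.2% of other genes), namely Cpr73D, Cpr78E, Cpr78Cb and TwdlG, and replicate 3 of 9 (against 54.4%), namely Lcp3, TwdlN, Cpr62Ba, Cpr65Eb, Cpr49Af, Cpr65Ec, TwdlG, Cpr51A and Cpr76Ba. TwdlG was the single gene in both. Of all 30000 pooled-list regions, 51.7% were found in both replicates. The share of other genes with a summit at their start in both lists was not counted. The overlap of 1 gene can therefore not be read as particular to the cuticle genes. The signal of the region nearest to each start ran from 0.664 to 1.62 times the list median in replicate 1 and from 0.528 to 1.59 in replicate 3, and of these regions only those at Cpr73D and Lcp3 were above the median of their list.

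Features of the genes themselves were compared as descriptions. Cuticle genes were short, with a median length of 957 bp against 2182 bp, and 110 of them (90.9%) had 1 annotated TSS, against 73.3% of other genes. Among other genes with 1 TSS, 27.6% were bound, and of the 110 cuticle genes with 1 TSS none was. Near-identical copies can hide peaks where reads have no unique place. Of the cuticle genes 110 had TSS windows in which 90% or more of the 32-base words occur once in the genome, and 0 of these were bound, against 34.2% of the other genes with such windows. The 11 exceptions were Cpr65Ax1, Cpr65Ax2, Lcp65Ab1, Lcp65Ab2, Lcp65Ag1, Lcp65Ag2, Lcp65Ag3 and Lcp65Aa of the array at 65A, and TwdlK, TwdlL and TwdlM. The lowest value was 4.47% at Cpr65Ax2. Over gene bodies, a thresholded summit lay inside 1 of 121 cuticle genes (Cpr73D) against 17.7% of other genes.

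None of the named families had a bound member. Beside the values below, 33.1% of other protein-coding genes were bound and 60.9% had a thresholded summit within 5 kb. Their median distance was 2472 bp. The 70 Cpr genes had 15 members with a thresholded summit within 5 kb and a median distance of 14659 bp. The 25 Twdl genes had 1 such member and a median of 30681 bp. Of these, the 12 from TwdlM to TwdlD, which share 1 summit-free stretch, lay 30681 to 51588 bp away, and the other 13 had a median of 12975 bp. The 15 Lcp genes had 1 at a median of 13683 bp. The 7 Ccp84A genes had 1, at a median of 11600 bp, and the 3 Edg genes, named for their dependence on the moulting hormone ecdysone, had none, at 5806 bp. The only Acp65A gene, Acp65Aa, lay 21246 bp away. By arm, 3L held 47 members, 3R 33, 2R 27, X 8 and 2L 6, and chromosome 4 held none.

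Members whose neighbouring TSSs lay at most 10 kb apart were joined, which gave 16 clusters of 3 or more genes with 87 members, 1 pair and 32 single genes. No thresholded summit fell between the first and the last TSS of any of the 16 clusters, and 6 of them had one within 5 kb of a member. Of all 49 groups 15 had one. The 16 clusters spanned 2.94 to 29.8 kb, and no matching count was made for runs of other genes. The distance between the thresholded summits on either side of a gene start had a median of 49.2 kb for cuticle genes (quartiles 29.2 and 88.3 kb), against 22.2 kb for other genes (7.50 and 69.1 kb) and 40.1 kb for other genes that were not bound (15.7 and 96.4 kb). Genes that share a stretch each count it here, and counted once per group the 49 groups had a median of 41.6 kb. Counted by gene, the stretch around cuticle genes was longer than around unbound genes at the median and shorter at the upper quartile. This difference was not tested.

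**Figure D3:**
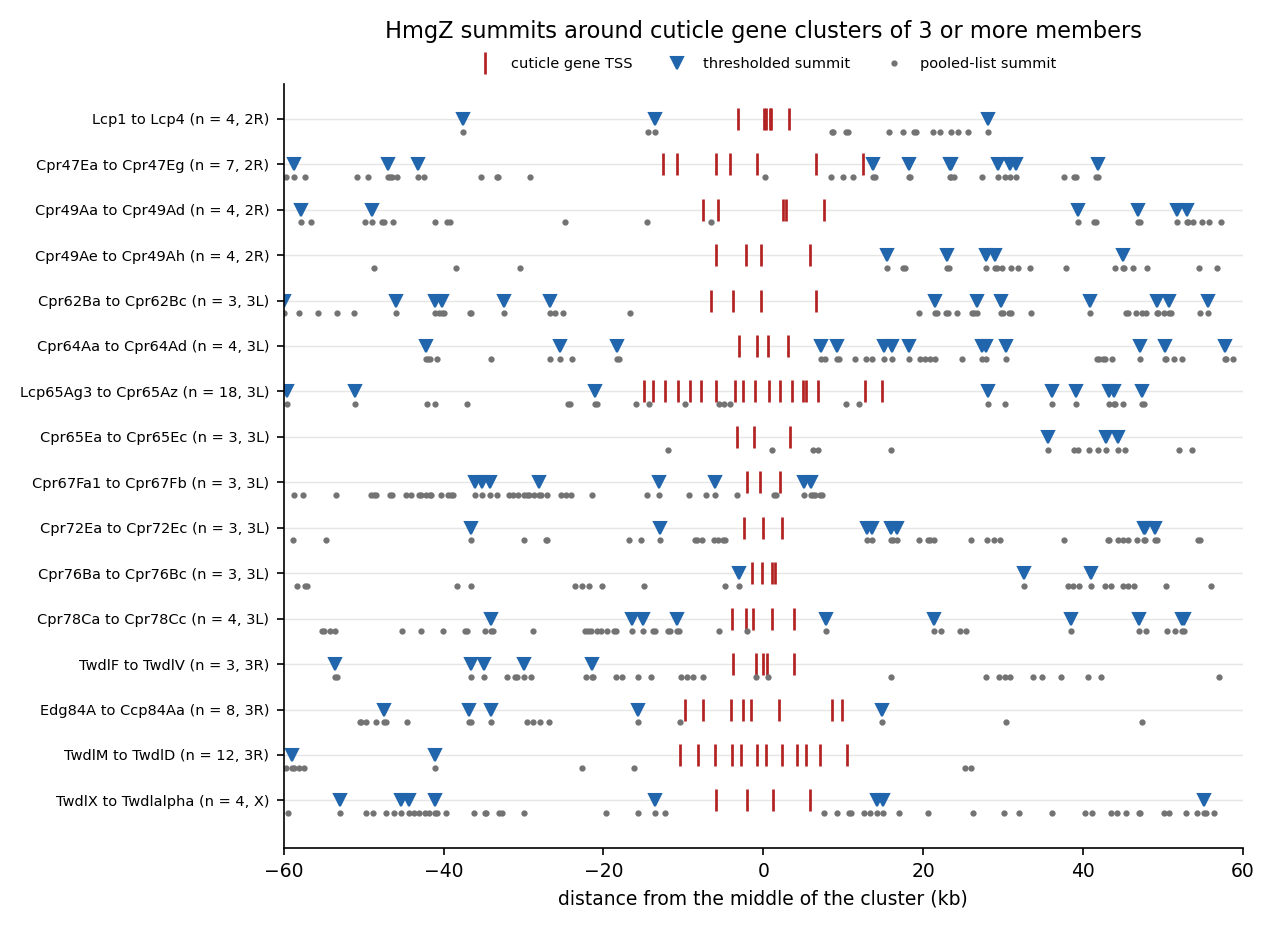
Positions of cuticle gene TSSs (red ticks), thresholded summits (blue triangles) and pooled-list summits (grey dots) in the 16 clusters of 3 or more members, one per row, with distance from the middle of the cluster in kb on the horizontal axis. Within the range drawn, triangles stand outside the ticks in every row. Some flanking summits lie beyond that range, and the full summit-free stretches ran from 11.1 kb (Cpr67Fa1 to Cpr67Fb) to 125.9 kb (TwdlM to TwdlD).

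The largest cluster, of 18 genes at 3L 6130989 to 6160814, runs from Lcp65Ag3 to Cpr65Az and includes the adult cuticle gene Acp65Aa. Its nearest thresholded summits lay 6.16 kb before the first TSS and 13.2 kb after the last. The nearest bound genes were loj, 36.0 kb to the left, with 4.64 times the list median in replicate 1 and 12.2 in replicate 3, and fmt, 13.1 kb to the right, found in replicate 3 (3.28) and not in replicate 1. This cluster held 7 pooled-list summits between its members, and 15 of its 18 genes had one within 5 kb. For this and the clusters below, the matching share of other protein-coding genes was 82.2%. It was 80.7% in the list of replicate 1 and 86.0% in that of replicate 3. The strongest of the 7 summits, 421 bp upstream of Cpr65Av, reached 1.89 in replicate 1 and 1.38 in replicate 3.

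The second cluster, of 12 Tweedle genes at 3R 26619118 to 26640025 from TwdlM to TwdlD, had the longest summit-free stretch of the 16. The flanking thresholded summits were 125.9 kb apart, and none of the 12 genes had a pooled-list summit within 5 kb. The replicates' own lists of 30000 regions differed here, with a summit within 5 kb of 7 of the 12 genes in replicate 3 and of 0 in replicate 1. Its nearest bound genes were scrib, a gene of cell polarity, 82.8 kb to the left (3.27 in replicate 1 and 4.35 in replicate 3), and amon, a prohormone-processing protease gene, 74.1 kb to the right (15.2 and 22.7). The peak at amon ranked 53rd of the thresholded set.

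The third cluster, of 8 genes at 3R 6684445 to 6704084 from Edg84A to Ccp84Aa, stands inside the Antennapedia complex of Hox genes. A thresholded summit lay 5.81 kb to its left, at the start of the Hox gene lab (2.28 in replicate 1 and 3.41 in replicate 3), and another 4.99 kb to its right, inside the Hox gene pb and away from any TSS (1.28 and 3.98). The next bound gene on that side was bcd, the anterior determinant of the embryo, 55.4 kb away (3.51 and 4.36). Of the 8 cuticle genes 3 had a pooled-list summit within 5 kb, with 2 in the list of replicate 1 and 4 in that of replicate 3.

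On 2R, the 7 genes from Cpr47Ea to Cpr47Eg (11253398 to 11278445) had a peak next to the last gene, described below, and none for 30.7 kb on the other side, where the bound gene was CG7737 (10.02 in replicate 1 and 12.6 in replicate 3). The clusters Cpr49Aa to Cpr49Ad and Cpr49Ae to Cpr49Ah, 4 genes each, shared a summit-free stretch of 88.3 kb that ended at CG8490 (5.09 and 5.07) and CG8520 (3.18 and 2.80). The 4 larval cuticle genes Lcp1 to Lcp4 (8431243 to 8437647) lay 10.4 kb and 24.96 kb from the nearest summits, and no pooled-list summit was within 5 kb of them. All 4 had a summit within 5 kb in the list of replicate 3, and 0 of 4 had one in that of replicate 1. Their bound neighbours were CSN7, a subunit gene of the COP9 signalosome, found in replicate 3 alone (2.93), and Mal-A5, a maltase gene (3.94 and 3.86).

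Of the other clusters on 3L, Cpr78Ca to Cpr78Cc, which includes Edg78E, stood between close peaks. The start of pzg, a chromatin regulator, lay 6.70 kb to its left (3.21 in replicate 1 and 7.88 in replicate 3) and that of CG11309 3.89 kb to its right. The 3 genes Cpr67Fa1 to Cpr67Fb had the shortest summit-free stretch, 11.1 kb, between OXA1L, a gene for a mitochondrial membrane insertase (2.16 and 2.57), and peaks inside Aps. On the side of Aps the nearest bound gene was CG6321, at 167.1 kb (4.92 and 5.615). Cpr65Ea to Cpr65Ec lay in a longer stretch, of 117.1 kb. Its bound genes were Galphai (7.27 and 6.30) at 106.6 kb and msl-3, a gene of the dosage compensation complex (3.24 and 2.68), at 32.3 kb. Stretches around Cpr62Ba to Cpr62Bc, Cpr64Aa to Cpr64Ad, Cpr72Ea to Cpr72Ec and Cpr76Ba to Cpr76Bc measured 48.1, 25.5, 25.9 and 35.6 kb. Those around TwdlF to TwdlV on 3R and TwdlX to Twdlalpha on X measured 82.2 and 27.8 kb.

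The nearest bound gene starts on either side of these 6 clusters lay at varied distances. Cpr62Ba to Cpr62Bc stood between CG42676 at 25.8 kb (2.32 in replicate 1 and 2.48 in replicate 3) and CG12024 at 15.1 kb (4.88 and 8.74). Cpr64Aa to Cpr64Ad, which lie inside the body of CG43367, stood between its start at 15.2 kb (2.68 and 3.76) and CG46460 at 11.9 kb (2.28 and 1.61). Cpr72Ea to Cpr72Ec stood between Tcs3 at 10.6 kb (4.10 and 3.10) and roq at 11.2 kb (3.04 and 3.51). All 6 of these bound genes were found in both replicates. Cpr76Ba to Cpr76Bc had Ltn1, a gene of ribosome quality control, at 31.0 kb (3.80 and 5.41) and none on the other side before Gbs-76A at 225.6 kb (2.96 and 3.44). The Tweedle cluster TwdlF to TwdlV had DhpD at 17.8 kb (3.80 and 5.89) and Suv3, a mitochondrial RNA helicase gene, at 56.8 kb, found in replicate 3 alone (2.19). On X, TwdlX to Twdlalpha, which lie inside the body of goe, had CG4678 at 35.0 kb (1.13 and 3.51) and the start of goe at 9.06 kb (4.38 and 8.12).

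Peaks close to cuticle genes often lay at the start of another gene, at a share near that of all peaks. Within 5 kb of a cuticle gene TSS lay 21 thresholded summits, all found in both replicates, and 13 of them (61.9%) were within 250 bp of a TSS of another protein-coding gene, against 56.7% of all 6844 thresholded summits. Their mean signal over the replicates had a median of 2.95, against 3.17 for all 6443 thresholded peaks found in both replicates (quartiles 2.45 and 4.44). One stood out, at chr3L:21304407-21304764, 28th in the thresholded set, which lay within 250 bp of the starts of both CG11309 and CG7632 and 3990 bp from Cpr78Cc. It reached 25.5 in replicate 1 and 24.7 in replicate 3 (mean 25.1 ± 0.582, SD, n = 2). The other 20 had means of 2.03 to 5.48.

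**Figure D4:**
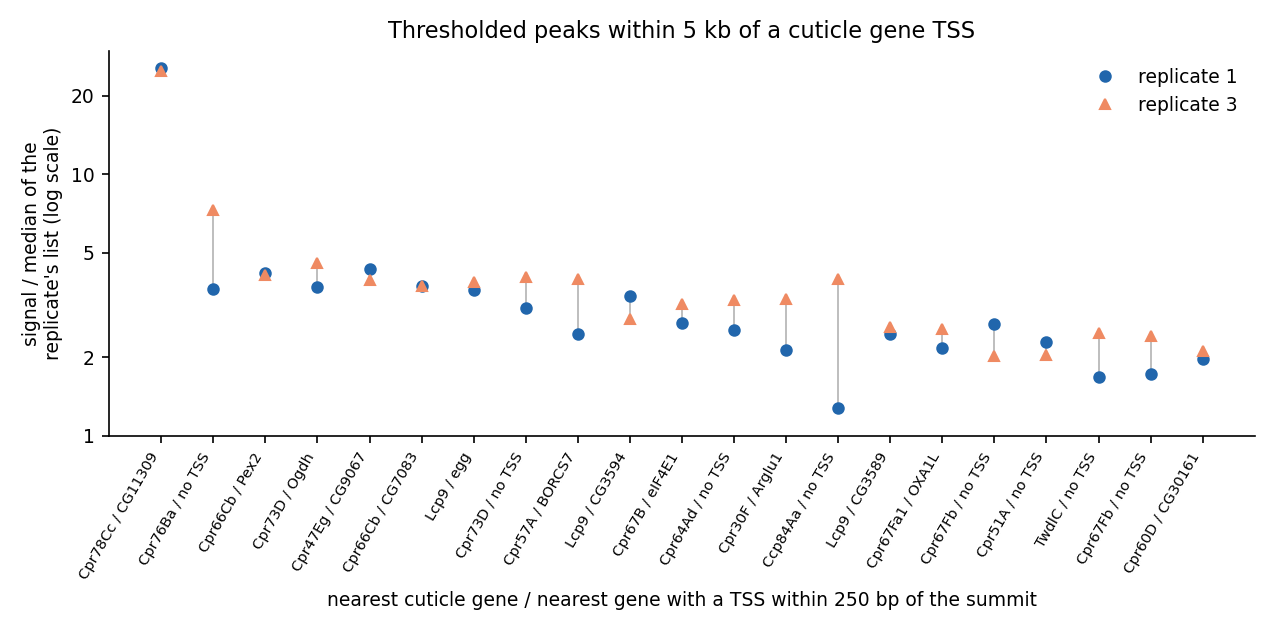
Signal of the 21 thresholded peaks within 5 kb of a cuticle gene TSS in units of the replicate's own list median (vertical axis, log scale), with replicate 1 as circles and replicate 3 as triangles and peaks ordered by their mean. The horizontal axis names the nearest cuticle gene and the nearest gene with a TSS within 250 bp of the summit, or "no TSS" where there was none. The leftmost peak reached 25.5 and 24.7, and the remaining means were 2.03 to 5.48.

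Lcp9 showed the closest contact. This gene of 450 bp (2R 24779979 to 24780428) had a summit 464 bp upstream of its TSS, which lay 25 bp before the start of CG3594 (3.43 in replicate 1 and 2.80 in replicate 3), and a summit 512 bp downstream, beyond its far end and 15 bp before the start of egg (3.60 and 3.86). Egg encodes a histone H3 lysine methyltransferase. A further peak, at -3113 bp from its TSS, was shared by CG3589 and TyrRS-m, the gene for a mitochondrial tyrosyl-tRNA synthetase (2.46 and 2.60). The cuticle gene was therefore enclosed by peaks at its neighbours' starts and had none at its own.

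Cpr73D (3L 16939100 to 16957689) overlaps the start of Ogdh, which encodes oxoglutarate dehydrogenase, and is read from the opposite strand. The peak 80 bp before an Ogdh TSS reached 3.70 in replicate 1 and 4.57 in replicate 3, and another, 497 bp before an Ogdh TSS and 747 bp downstream of the Cpr73D TSS, reached 3.09 and 4.04. Peaks in this shared stretch cannot be assigned to one gene of the pair.

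Similar pairs recurred along the arms. Next to Cpr60D a summit 981 bp upstream lay at the starts of CG30161 and ND-19, a subunit gene of respiratory complex I (1.96 in replicate 1 and 2.10 in replicate 3). Next to Cpr47Eg a summit 1251 bp upstream lay at the starts of CG9067 and Vhl, the von Hippel-Lindau gene (4.34 and 3.93). Cpr57A had a summit 2033 bp upstream at BORCS7 and CG13430 (2.46 and 3.99), and Cpr67B one 2309 bp upstream at eIF4E1, which encodes the cap-binding translation factor (2.69 and 3.20). Cpr66Cb had summits 2350 and 4014 bp downstream at Pex2, a peroxisome biogenesis gene (4.18 and 4.14), and at CG7083 (3.75 and 3.73). Cpr30F had one at Arglu1 (2.13 and 3.34).

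The remaining 8 summits were within 250 bp of no protein-coding TSS. The strongest, 1588 bp downstream of Cpr76Ba, was within 5 kb of all 3 genes of its cluster and reached 3.64 in replicate 1 and 7.31 in replicate 3. A summit upstream of Cpr51A reached 2.29 and 2.04, one downstream of Cpr64Ad reached 2.54 and 3.30, and one upstream of TwdlC reached 1.68 and 2.47. The other 4 were the peak inside pb, that at Cpr73D named above and both peaks inside Aps.

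Other genes around the cuticle genes were bound at a rate near that of the genome once the nearest were passed. Of 715 other protein-coding genes with a TSS within 50 kb of a cuticle gene TSS, 225 were bound (31.5%), against 33.2% of the 13109 genes farther away. Within 10 kb the count was 40 of 162 (24.7%) and within 5 kb 19 of 88 (21.6%).

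TATAAA was more frequent in cuticle promoters than in others, most of all close before the gene start. A TATAAA on the gene's strand that began 45 to 15 bp before the gene start, a position chosen after the matches were seen, occurred in 75 of 121 cuticle promoters (62.0%), against 8.67% of other promoters. Anywhere in the 300 bp from 250 bp before the start and on either strand, TATAAA occurred in 75.2% against 45.5%. Placed TATA boxes were found in 39 of 70 Cpr, 15 of 25 Twdl, 12 of 15 Lcp, 5 of 7 Ccp84A, 3 of 3 Edg and 1 of 1 Acp65A genes. The G+C content of the same 300 bp had a median of 44.0% in cuticle promoters and 38.0% in others.

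In contrast, sequences of broadly active promoters had lower shares in cuticle promoters than in others. The core of the motif bound by M1BP, GGTCACAC, occurred in 0 of 121 cuticle promoters and 7.77% of others. The palindrome of the DNA replication-related element, TATCGATA, occurred in 1 (0.826%) against 9.43%, and the BEAF-32 core CGATA, which that palindrome contains, in 35.5% against 47.5%. The initiator core TCAGT had near-equal shares (52.1% against 51.5%). GAGAG, read by the GAGA factor, stood at 30.6% against 29.7%, and at 11.6% against 18.1% in the shorter promoter from 100 bp before the start. The sequences of the hormone-pathway receptor ftz-f1, CAAGGTCA (0.826% against 0.492%), and of the epidermal factor grainy head, ACCGGTT (2.48% against 1.86%), were rare in both groups. The Zelda motif CAGGTAG (0% against 1.66%) and the E-box CACGTG (2.48% against 4.22%) were rare too. A match is a description of letters and not a site.

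**Figure D5:**
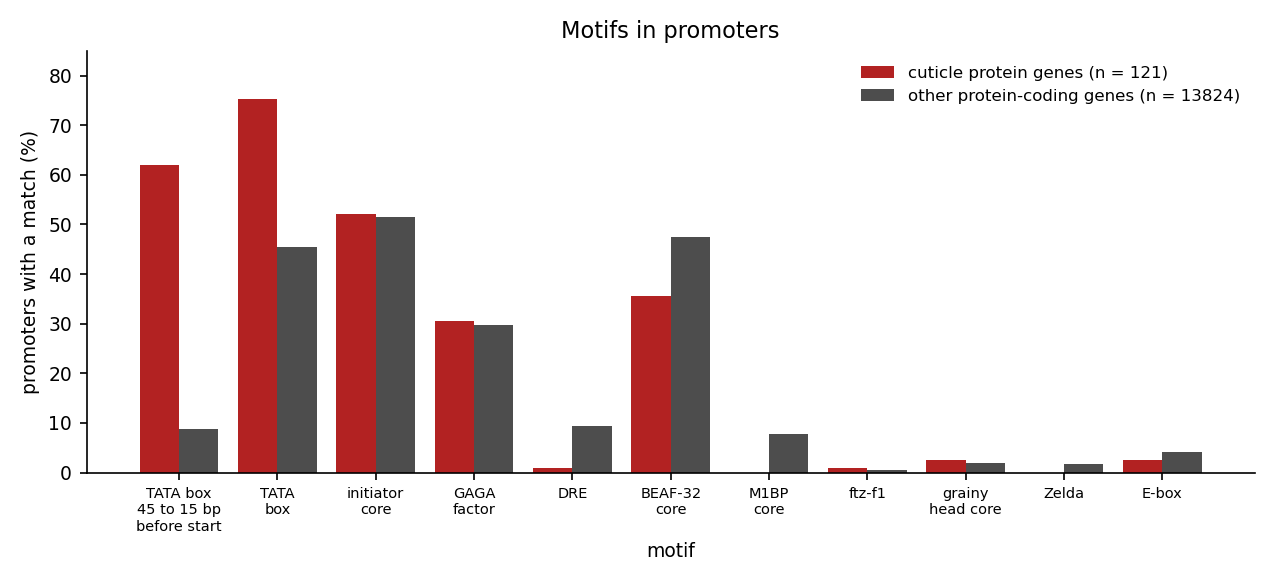
Share of promoters with at least 1 match (vertical axis, percent) for a TATA box at its usual position and for 10 short sequences anywhere in 300 bp of promoter, in the 121 cuticle genes (red, left bars) and the 13824 other protein-coding genes (grey, right bars). The positioned TATA box stood at 62.0% against 8.67%, and the M1BP core at 0% against 7.77%.

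Among other genes, the share bound was lower with the positioned TATAAA and higher with GGTCACAC and TATCGATA. Other genes with a TATAAA at the position above were bound in 10.3% of cases, against 35.3% of those without, and other genes that had such a TATA box and 1 TSS were bound in 66 of 1044 cases (6.32%). In the pooled list these were 219 of 1044 (21.0%). Of the 75 cuticle genes with such a box, 0 were bound and 0 had a pooled-list summit, and of the 46 without one, 0 were bound and 4 had a pooled-list summit. Other genes with GGTCACAC were bound in 64.4% of cases, against 30.4% without, and those with TATCGATA in 62.6% against 30.0%. Around the 21 thresholded summits near cuticle genes, CGATA occurred in 10 of the 201-base windows (47.6%), against 39.9% around all 6844. The part of promoter sequence in the cuticle genes' count was not tested.

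Genes that make or regulate the rest of the cuticle were counted in the same way, beside 33.1% bound and 55.0% with a pooled-list summit among the other protein-coding genes. The chitin synthesis list was bound in 5 of 11 cases, and all 11 had a pooled-list summit within 250 bp. Bound members were mmy, Gfat1, Gfat2, Gnpnat and nst, enzymes of the pathway to the sugar nucleotide from which chitin is made. Gnpnat stood at 3.21 in replicate 1 and 3.84 in replicate 3. The peak at mmy was found in replicate 1 (3.37) and not in replicate 3. The chitin synthase genes kkv and Chs2 and the deposition genes knk, rtv, exp and reb had only pooled-list summits at their starts. Of 13 genes for regulators of cuticle genes 6 were bound and 11 had a pooled-list summit. Bound were the hormone receptor genes EcR, usp, Eip75B, Hr3, Hr39 and ftz-f1, with Eip75B highest (6.61 and 8.77). The peak at Hr3 was found in replicate 3 (2.21) and not in replicate 1. At grh, vvl and ovo there were pooled-list summits alone.

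The lists of secreted or late-acting products are set beside the same shares of other genes, 33.1% bound and 55.0% with a pooled-list summit. Among chitin-binding and chitin-modifying genes 2 of 24 were bound (8.33%), the chitinase genes Cht7 and Cht11, and 8 of 24 had a pooled-list summit, verm, serp and Gasp included. Among tanning genes, which harden and colour the cuticle, 1 of 9 matched was bound (Pu, which makes pteridine cofactors) and 2 had a pooled-list summit. The list of matrix proteins with a zona pellucida domain had 1 of 10 bound (tyn) and 4 with a pooled-list summit. Cuticle proteins outside the symbol rule, such as resilin, Pcp and Vajk1, had 0 of 7 bound and 1 with a pooled-list summit, resilin. For comparison, muscle structure genes had 2 of 20 bound and 12 with a pooled-list summit, and cytoplasmic ribosomal protein genes had 73 of 93 and 87 of 93. Median distances to a thresholded summit were 14570 bp for cuticle, 7490 bp for muscle and 68 bp for ribosomal protein genes, and no test was made between these lists.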

How the data were processed

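HmgZ ChIP-seq was analysed in 2 biological replicates of whole embryos. Per the labels, chromatin was sheared to 200 to 800 bp. The deposited peak lists give coordinates on dm6, a signal per region made by the authors' caller, and a −log10 q-value; the sources used here do not name the aligner or the caller. The authors called regions on each replicate and on pooled reads against the same control alignment, which was not analysed here. The scale of the deposited signal differs between lists, so signal was divided by the median of its list. The deposited −log10 q-value has a maximum of 4.23 shared by 8539 of the 30000 pooled regions, and was not used for ranking.

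Summits were compared with all annotated TSSs of protein-coding genes (Ensembl release 115) on 6 arms. The sequence came from the RefSeq copy of the same assembly. Members at most 10 kb apart formed a cluster. Regions of 2 lists were matched at summits within 100 bp. Motifs were searched on both strands, and overlapping matches count once per promoter. Uniqueness was the share of 32-base words found once in the genome. Intervals are Wilson intervals, and the floor is 3 counts. No test was run, since there is 1 group. Named were all clusters of 3 or more with their flanking bound genes, members with a pooled-list summit within 250 bp, and the members nearest to thresholded summits. The members and lists were chosen with earlier results of these data known. Distance calculation was tested on simulated data. Python 3.11.15, numpy 2.4.6, pandas 2.3.3, scipy 1.17.1 and matplotlib 3.10.9 were used. Alternatives were other windows, only the stronger peaks, single replicates, a shorter promoter and members with 1 TSS. Protein features were not analysed here.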

Additional observations from a re-analysis of the deposited data

How the results depend on the processing

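Of the alternatives tried, 43 left a value within its limits and 26 moved it, most of them by construction, since they widen or narrow the window. Cuticle genes with a thresholded summit numbered 1, 3 and 5 at 500, 1000 and 2000 bp, against 0 at 250 bp. The shares of other genes at 500, 1000 and 2000 bp were 37.4%, 41.3% and 47.2%. With a pooled-list summit, cuticle genes numbered 1, 8, 20 and 35 at 100, 500, 1000 and 2000 bp. The shares of other genes were 39.8%, 61.8%, 66.5% and 72.7%. Among members with 1 TSS, an alternative chosen after seeing the data, 1 had a pooled-list summit within 250 bp. Of other genes with 1 TSS, 47.2% had one. At 2, 10 and 20 kb, 5, 39 and 77 genes had a thresholded summit, as did 5, 23 and 35 of the groups of neighbouring members. The shares of other genes were 47.2%, 72.9% and 83.6%. At 2 and 20 kb, 35 and 116 genes (28.9% and 95.9%) had a pooled-list summit, against 72.7% and 94.0% of other genes. With only the thresholded peaks above the median rank, 9 genes and 7 groups had a summit within 5 kb and the median distance was 26575 bp. Other genes were not counted at this cut. With the strongest 3000 and 4000 regions of the pooled list, 38.8% and 47.2% of them had a summit within 5 kb, so a shorter list lowered their share too. Groups of other genes were not counted at any setting. With 1 replicate left out, the counts were 0 to 0 (thresholded, 250 bp), 19 to 20 (thresholded, 5 kb), 14 to 16 groups, 4 to 9 (pooled list, 250 bp) and 59 to 79 (pooled list, 5 kb), and the median distance was 13107 to 16012 bp. For the gene counts, in the same order, other genes stood at 31.5 to 33.4%, 59.0 to 62.3%, 54.2 to 54.4% and 80.7 to 86.0%. The count of 9 came without replicate 1 and the cause was not tested. TATAAA by position, chosen after seeing the data, stood at 62.0% (8.67% of other promoters). In the promoter from 100 bp before the start, TCAGT stood at 40.5% (37.3% of other promoters) and GAGAG at 11.6% (18.1%). There CGATA stood at 19.0% (34.5% of other promoters), ACCGGTT at 0.826% (1.01%) and CACGTG at 0.826% (2.41%). No paired analysis was possible because there is 1 group. The depth is unknown, and no ChIP without the tagged protein was analysed here.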
